A study of Zea mays with 58 samples.

Results

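The genes described here are 121 annotated maize genes whose transcripts were lower in nitrogen-supplied roots after 60 to 120 min than in roots kept without nitrogen, and lower than in nitrogen-supplied roots at 5 min. They were chosen from 46335 annotated features, of which 16512 reached a group mean of 3 or more on the scale log2(CPM + 1) in at least 1 group, where CPM is a gene's count scaled to a common library total. On that scale each gene had to be at least 0.8 lower at 90 and 120 min than at 5 min in nitrogen-supplied roots, and at least 0.8 lower in nitrogen-supplied than in nitrogen-free roots on average over 60, 90 and 120 min. A further 11 genes met both conditions and were left out because they are regulators in the deposited gene regulatory network.

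The samples were roots of 10-day-old B73 maize seedlings, an inbred line, all of which had been kept without nitrogen for 2 days. Nitrogen roots, labelled N, received 20 mM KNO3 and 20 mM NH4NO3, with 10% of the nitrogen as the heavy isotope 15N, and were taken every 5 min until 20 min and then after 30, 45, 60, 90 and 120 min. Control roots, labelled noN, received 20 mM KCl and were taken at the same times, and a 0 min group is also labelled noN. Each of the 58 libraries came from 3 pooled seedlings, with 3 libraries in each of 18 groups and 4 in noN at 120 min; pooling within a library leaves the spread between single seedlings unmeasured.

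Nitrate is taken up by root transporters, reduced to nitrite and then to ammonium, and built into glutamine and glutamate. Nitrate is also a signal in its own right, and plant roots change the transcription of many genes within minutes of receiving it. Roots short of nitrogen are known to raise high-affinity uptake systems, and a resupply of nitrate and ammonium brings many starvation-associated transcripts down again. Which of these processes the 121 genes serve could not be said here, because the files pair their identifiers with no gene names and 0 of the 121 matched the maize reference list used. Lists of named pathway genes and root cell type markers could not be applied for the same reason, so the root label was not checked against markers, and the genes are described by their courses, positions and levels.

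Of the 121 genes, 118 carry gene model identifiers, 2 carry non-coding RNA identifiers and 1 lies on the mitochondrial chromosome. In the B73 RefGen_v4 (AGPv4) annotation used for counting, their exons summed to a median of 1643 bases (quartiles 1030 and 2265, range 135 to 6605), against a median of 2170 bases among the 16512 features at or above the level minimum. Exon lengths under 1000 bases were found in 28 of the 121 (23.1%), against 11.8% of those 16512 features. The median number of exon blocks was 3, against 5. Chromosome 6 held 17 of the genes (14.05%), against 8.10% of the features, and chromosome 1 held the most, 21 (17.4% against 15.7%). These are descriptions of the chosen genes and were not tested.

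The genes spanned a wide range of abundance. Their mean over all libraries ran between 3.25 and 399 CPM with a median of 27.9 CPM, and the 10 most abundant genes made up 39.8% of the summed signal. The most abundant, at chr2:37815902-37818424, made up 6.54%. All 121 passed the filter on low counts that was used for testing.

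Library depth ran from 1978039 to 3790442 counts (median 2617921). Libraries differed in makeup between blocks of time as well as between treatments. The count-weighted mean log2 exon length was 10.98 ± 0.0166 in N roots at 5 to 45 min (SD, n = 18) and 11.05 ± 0.0325 in noN roots at 0 to 45 min (n = 21), while at 60 to 120 min it was 10.99 ± 0.00530 in N (n = 9) and 10.99 ± 0.0114 in noN (n = 10). Every comparison of N with noN at 10 to 45 min therefore compares libraries with shorter and longer average transcripts. Within noN the mean was also longer in the libraries of 30 and 45 min (11.0662 to 11.1141) than in those of 10 and 15 min (11.0101 to 11.0455), whereas within N these ranges overlapped. The share of counts in the 50 most abundant genes was 9.01% to 11.4% in N and 6.68% to 8.48% in noN at 5 to 45 min, with 9.10% ± 0.609 and 9.30% ± 0.706 at 60 to 120 min; its part in the results was not tested. The labels give no batch. Nothing in the labels says that libraries of a group came from separate experiments, so p-values measure the spread between these libraries. In addition, several noN libraries outside the 15 min group were high for a subset of the genes, as described with the 15 min values.

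The values that chose the genes are given first, as a description without a test. The change in N roots between the mean of 90 and 120 min and 5 min ran from −2.4999 to −0.81 with a median of −1.13, and the gap of N to noN over 60 to 120 min ran from −2.31 to −0.80 with a median of −1.06 (log2 scale). Just inside the limit, a gene at chr8:66261505-66262884 had values of −1.97 and −0.80, and one at chr10:143572991-143576712 had −0.81 and −0.81. Just outside it, genes at chr2:32462211-32463192 and chr7:107529891-107532414 had gaps of −0.7965 and −0.7963.

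**Figure D1:**
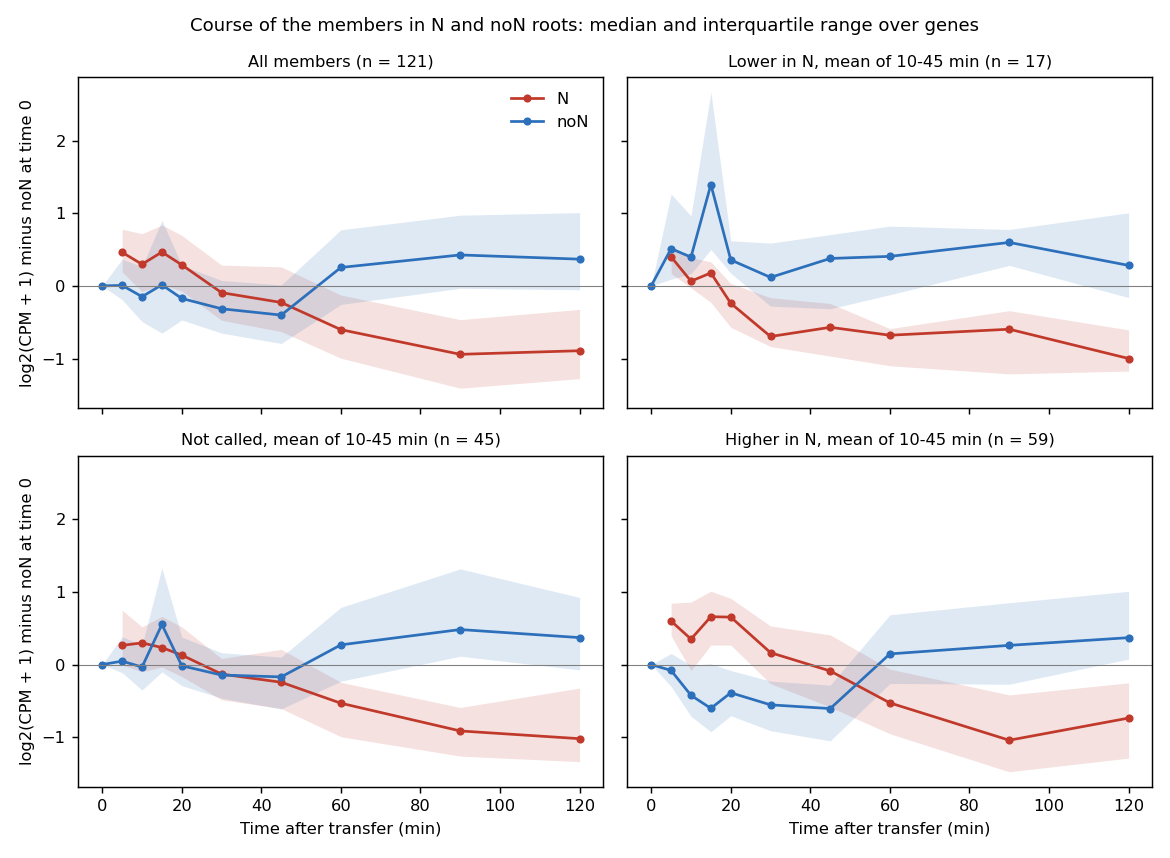
Median change of the 121 genes from 0 min, on the log2(CPM + 1) scale (y axis), against minutes after the change of medium (x axis), in N and noN roots, for all genes and for the genes grouped by their gap between N and noN at 10 to 45 min, with bands for the interquartile range over genes. The N medians are above 0 until 20 min and reach −0.94 at 90 min, whereas the noN medians are −0.40 at 45 min and 0.43 at 90 min.

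Summed over the 121 genes, the signal in N roots was 8450 ± 2820 CPM after 5 min, and the 10, 15 and 20 min groups had 6999 ± 1336, 8731 ± 2588 and 8144 ± 1639 CPM (SD, n = 3 each). The 30 and 45 min groups had 5748 ± 875 and 5173 ± 955 CPM. The 60, 90 and 120 min groups had 3815 ± 1324, 2633 ± 353 and 3120 ± 197 CPM. The libraries of the first 20 min overlapped between times, and the libraries at 90 and 120 min had summed values between 2347 and 3300 CPM.

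In noN roots the summed signal was 6173 ± 1006 CPM in the 0 min group, and the 5, 10, 15 and 20 min groups had 6517 ± 1608, 5110 ± 471, 8802 ± 2333 and 5194 ± 1278 CPM. The 30 and 45 min groups had 4641 ± 403 and 4121 ± 341 CPM. The 60, 90 and 120 min groups had 6522 ± 895, 7821 ± 2019 and 7580 ± 2551 CPM (n = 4 in the last, n = 3 elsewhere). The noN roots had their lowest group mean at 45 min and higher ones from 60 min, with a single high group at 15 min. N at 5 min and both media at 60, 90 and 120 min chose the genes, so the sums of these groups are a description. The high sum at 15 min was not shared by the median gene. The median deviation from each gene's mean, averaged over libraries, was 0.035 on the log2 scale in noN at 15 min and 0.077 at 0 min. In whole-root libraries, fewer cells of a type and less RNA per cell cannot be told apart.

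The time of the lowest value also varied between genes. In N roots the lowest group mean fell at 90 min for 60 genes and at 120 min for 39, while 13, 7 and 2 genes were lowest in the 60, 45 and 30 min groups. The highest group mean was that of 5 min for 45 genes, and 20, 29 and 23 genes were highest in the 10, 15 and 20 min groups, with 1 and 3 in the 30 and 45 min groups. N at 5, 60, 90 and 120 min chose the genes, which favours lows at the late times and highs at the early ones. These counts are therefore a description and were not set against all genes.

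**Figure D2:**
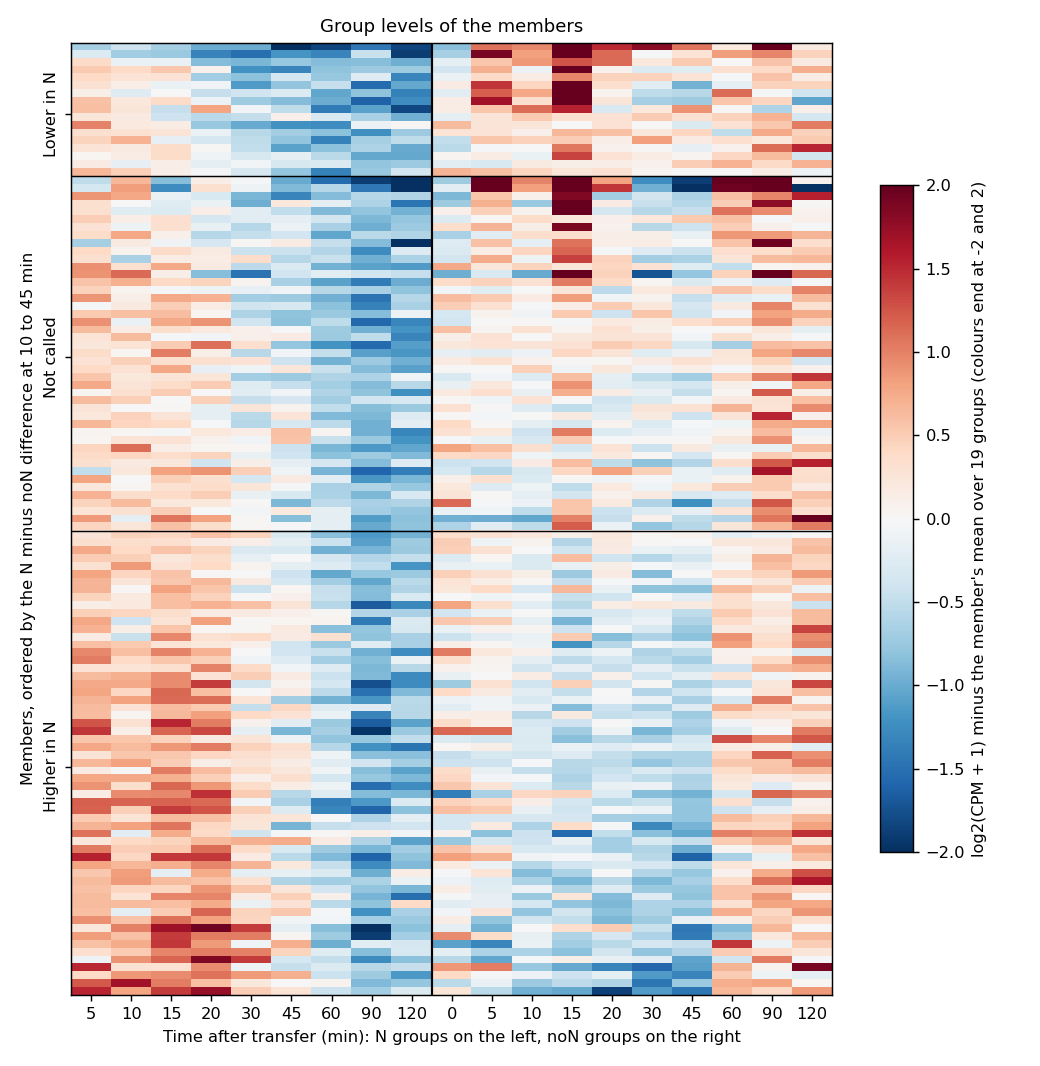
Level of each of the 121 genes (rows) in each group (columns; N groups left, noN groups right, by minutes), as the deviation of the group mean from that gene's mean on the log2(CPM + 1) scale. N columns at 90 and 120 min are low for nearly all rows because these columns chose the genes; the noN 15 min column is split between high and low rows.

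Whether the decrease had begun before the times that chose the genes was asked in N libraries that the choice did not use, apart from the level minimum, which every group could meet. Of the 121, 5 met that minimum only through groups of 10 to 45 min, 1 of them only through the N groups compared here, where it was not called. The mean of 30 and 45 min was compared with the mean of 10 and 15 min. By edgeR's quasi-likelihood test with Benjamini-Hochberg adjustment over 18872 genes, 29 of the 121 (23.97%) fell and 0 rose, against 3.54% of all genes tested that fell and 5.27% that rose. At an unadjusted p under 0.05, 58 of the 121 were lower and 0 were higher, against 10.1% and 11.1% of all genes. The median log2 change over the 121 was −0.60 (quartiles −0.90 and −0.27), against −0.01 over all genes, and 112 of 121 values were negative. Without replicate 2 of N at 10 min, 18 of the 121 fell.

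For 12 of the 121 genes (9.92%), all 6 N libraries at 30 and 45 min lay below all 6 at 10 and 15 min, against 1.19% of all genes tested. Each later N group was also set against N at 10 min alone. In the 15, 20, 30 and 45 min groups 0, 0, 5 and 24 of the 121 fell, where 0.0%, 0.435%, 1.35% and 3.44% of all genes did. None of the 121 rose in any of these groups, where 0.0583%, 1.29%, 3.48% and 5.04% of all genes did. The median log2 changes were 0.12, 0.02, −0.42 and −0.58. A fall past the threshold was therefore first seen at 30 min.

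The same change was asked of noN roots. Between the mean of 10 and 15 min and the mean of 30 and 45 min, 19 of the 121 fell and 2 rose, against 4.97% and 5.53% of all genes. Of the 19, 1 met the level minimum only through these noN groups. The median log2 change was −0.25, against 0.0043 over all genes, and with the trend over exon length removed it was −0.17, against 0.019, with 19 and 2 genes called. This count depended on the 15 min groups being in the contrast. With both left out, which leaves fewer early libraries, 2 genes fell and 0 rose. Fewer of all genes passed then as well. In N, the 30 and 45 min groups set against 10 min alone, also without 15 min libraries, had 5 and 24 genes that fell. Those are contrasts of single times and not of the mean of 30 and 45 min. They cannot be set beside the noN count as a comparison of the media. Each noN group was set against noN at 0 min as well. In the 10, 15, 20, 30 and 45 min groups 4, 21, 6, 13 and 19 of the 121 fell, where 1.87%, 9.64%, 2.51%, 4.66% and 8.22% of all genes did. In the same groups 1, 21, 1, 1 and 0 rose, where 1.85%, 8.9%, 0.938%, 2.44% and 5.37% of all genes did. The 15 min group thus held as many of the 121 above as below the 0 min level, and the median log2 change was 0.03 there and −0.44 in the 45 min group.

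The change in N differed from the change in noN, tested as the difference itself, for 3 genes: it was more negative in N for 2 and more positive in N for 1, against 1.17% and 2.06% of all genes. Without adjustment, 22 were more negative and 8 more positive, against 8.15% and 8.79% of all genes. The median difference was −0.33, against −0.02 over all genes. With the 15 min groups left out, 0 genes passed in either direction. The count of 2 was 0 without replicate 1 of N at 10 min or replicate 3 of noN at 30 min, 5 without replicate 2 of noN at 15 min, and 4 when noN replicate 1 at 45 min was left out. The count of 1 was 0 without replicate 1 of noN at 10 min. Of the 29 genes that fell in N, 4 also fell in noN (13.8%), against 23.6% of all 669 genes that fell in N. The other 25 did not pass the test there, which does not show that they kept their level.

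**Figure D3:**
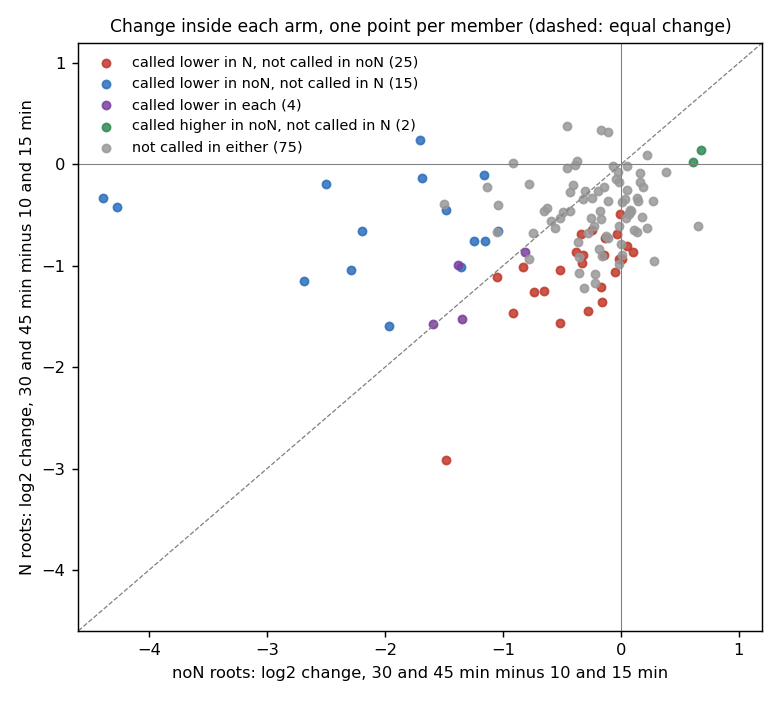
Log2 change from 10 and 15 min to 30 and 45 min for each of the 121 genes, in N roots (y axis) against noN roots (x axis), coloured by which changes passed edgeR's test at an adjusted p of 0.05. Most points lie below 0 in N (112 of 121). The gene with the largest fall in noN, −4.39, is not the gene with the largest fall in N, −2.92.

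The gap between N and noN roots before 60 min was not the gap that chose the genes. Averaged over 10, 15, 20, 30 and 45 min, 59 of the 121 were higher in N, 17 were lower in N and 45 were not called in either direction by edgeR at an adjusted p of 0.05, against 29.4% of all genes higher and 30.6% lower. The median log2 gap was 0.29, against −0.03 over all genes, with a range from −2.72 to 2.54. With the trend of each contrast over exon length removed, 57 were higher (47.1%) and 17 lower, and the median was 0.36. Without the 5 genes that met the level minimum only through these groups, 57 were higher and 15 lower. The lower count was 11 without replicate 1 of noN at 20 min, and 11 with the 15 min groups left out.

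At the single times of 10, 15, 20, 30 and 45 min, 16, 43, 41, 19 and 13 of the 121 were higher in N, where 7.56%, 14.7%, 16.4%, 12.2% and 13.4% of all genes were. Lower in N were 0, 16, 3, 4 and 6 of the 121, where 4.18%, 12.5%, 13.8%, 7.93% and 10.2% of all genes were. The count higher in N was thus largest in the 15 and 20 min groups. The median log2 gap was 0.52, 0.50, 0.50, 0.23 and 0.18 at these times. With the trend over exon length removed it was 0.46, 0.53, 0.51, 0.22 and 0.051, so that the gap of the 45 min group was smaller, and 14, 42, 39, 17 and 13 genes were higher in N and 0, 16, 5, 4 and 7 lower. In the 60, 90 and 120 min groups, which chose the genes, it was −0.83, −1.48 and −1.32, given only as a description.

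The 59 genes higher in N at 10 to 45 min had N medians above their 0 min level at 15 min (0.66) and 20 min (0.65), and noN medians below it at both times (−0.60 and −0.39). Their N medians were −0.53 at 60 min and −1.04 at 90 min, and their noN medians 0.15 and 0.26 (log2 change from 0 min). The side of N at both ends follows from how these genes were chosen and grouped and is given as a description. Of these 59 genes, 12 fell within N by the test above, which shares its N libraries with the gap.

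For the 17 genes lower in N at 10 to 45 min, the side of N at these times follows from the grouping and is given as a description. In the 15, 20 and 45 min groups their N medians were 0.18, −0.24 and −0.57, and their noN medians were 1.39, 0.36 and 0.38. Of these 17 genes, 6 fell within N, with a median change of −0.93 over the 17, by the test that shares its N libraries with the gap. Among the 45 genes with no gap past the threshold, 11 fell within N, and the N and noN medians were 0.23 and 0.55 at 15 min.

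Of the 121, 4 genes are identified singly, 2 that fell in N and 2 that rose in noN, since none rose in N. Zm00001d039468 lies on the minus strand at chr3:5118949-5119466 in a single exon block of 518 bases. In N roots it had 197, 84.2 and 67.5 CPM in the 10 min libraries, 123, 106 and 122 CPM in the 15 min libraries, 47.7, 49.9 and 49.6 CPM after 30 min and 29.6, 40.3 and 26.5 CPM after 45 min. In noN roots it had 80.4, 44.3 and 43.1 CPM in the 10 min libraries, 39.7, 37.2 and 43.2 CPM in the 15 min libraries, 38.1, 27.6 and 46.4 CPM after 30 min and 23.2, 40.3 and 24.9 CPM after 45 min. All 6 later N libraries were below all 6 earlier ones, whereas the later and earlier noN libraries overlapped.

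Its log2 change within N was −1.56 (SE 0.20, adjusted p = 2.099e-07, edgeR) and within noN −0.51 (SE 0.20, adjusted p = 0.0998). The difference between the changes was −1.05 (SE 0.29, adjusted p = 0.0317), with an adjusted p of 0.261 when the 15 min groups were left out. That call was also lost on leaving out any of 8 of the 24 libraries, with an adjusted p of up to 0.107. They were N replicate 1 at 10 min, N replicates 1 and 3 at 45 min, noN replicates 2 and 3 at 10 min, and noN replicates 1, 3 and 2 in the 15, 30 and 45 min groups. Averaged over 10 to 45 min the gene was higher in N by 0.96 on the log2 scale (SE 0.13, adjusted p = 2.498e-08). At 5 min it had 121, 114 and 119 CPM in N, against 62.3, 81.1 and 58.1 CPM in noN. The choice rule used N at 5 min and favours high values there, so this is a description.

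The other gene, Zm00001d003852, on the plus strand at chr2:62770637-62772650 with 1854 exon bases, also fell within N. In N roots it had 17.2, 9.01 and 10.0 CPM in the 10 min libraries, 19.5, 6.85 and 8.91 CPM in the 15 min libraries, 5.39, 3.93 and 4.70 CPM after 30 min and 3.66, 3.81 and 4.30 CPM after 45 min. In noN roots it had 13.6, 12.4 and 11.7 CPM in the 10 min libraries, 9.86, 9.15 and 12.3 CPM in the 15 min libraries, 7.68, 11.5 and 12.2 CPM after 30 min and 9.81, 7.24 and 8.19 CPM after 45 min. The later N libraries were again all below the earlier ones.

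The log2 change of Zm00001d003852 was −1.44 within N (SE 0.23, adjusted p = 1.596e-05, edgeR) and −0.28 within noN (SE 0.20, adjusted p = 0.396). The difference was −1.16 (SE 0.31, adjusted p = 0.0257), with an adjusted p of 0.128 when the 15 min groups were left out. It was also lost without replicate 1 of N at 10 or 15 min or replicate 3 of noN at 30 min, with an adjusted p of up to 0.0691. Unlike Zm00001d039468 it was lower in N over 10 to 45 min, with a gap of −0.67 on the log2 scale (SE 0.14, adjusted p = 5.313e-05). In N it was higher again at the end, with 9.33, 10.9 and 11.7 CPM at 120 min, against 21.7, 27.2, 20.2 and 20.2 CPM in noN. The gap to noN at 120 min was part of the choice rule.

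Zm00001d022072, at chr7:169436693-169442713 on the minus strand with 3986 exon bases, rose within noN. It had 34.4, 32.9 and 36.3 CPM in the 10 min libraries in N, 29.5, 44.2 and 32.8 CPM in the 15 min libraries, 30.6, 31.8 and 62.6 CPM after 30 min and 40.2, 37.6 and 31.5 CPM after 45 min. In noN it had 30.4, 32.9 and 23.7 CPM in the 10 min libraries, 22.1, 31.6 and 18.6 CPM in the 15 min libraries, 39.9, 44.5 and 40.98 CPM after 30 min and 34.8, 46.3 and 49.2 CPM after 45 min. The later noN libraries were all above the earlier ones, and the N libraries overlapped. Its log2 change was 0.14 in N (SE 0.18, adjusted p = 0.722, edgeR) and 0.68 in noN (SE 0.18, adjusted p = 0.00906), the second with an adjusted p of 0.168 when the 15 min groups were left out.

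Zm00001d037289, at chr6:119523282-119528893 on the minus strand with 2837 exon bases, also rose within noN. In N it had 62.6, 57.6 and 52.1 CPM in the 10 min libraries, 74.8, 98.6 and 56.3 CPM in the 15 min libraries, 70.1, 64.1 and 93.9 CPM after 30 min and 71.5, 60.96 and 47.7 CPM after 45 min. In noN it had 43.2, 49.8 and 35.8 CPM in the 10 min libraries, 30.2, 35.98 and 34.6 CPM in the 15 min libraries, 64.03, 51.1 and 61.2 CPM after 30 min and 41.6, 62.6 and 67.1 CPM after 45 min. N levels overlapped throughout, and 1 noN library at 45 min overlapped those at 10 min. The log2 change was 0.02 in N (adjusted p = 0.965, edgeR) and 0.61 in noN (SE 0.17, adjusted p = 0.0136), with adjusted p = 0.269 when the 15 min groups were left out and 0.0506 without replicate 3 of noN at 45 min.

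**Figure D4:**
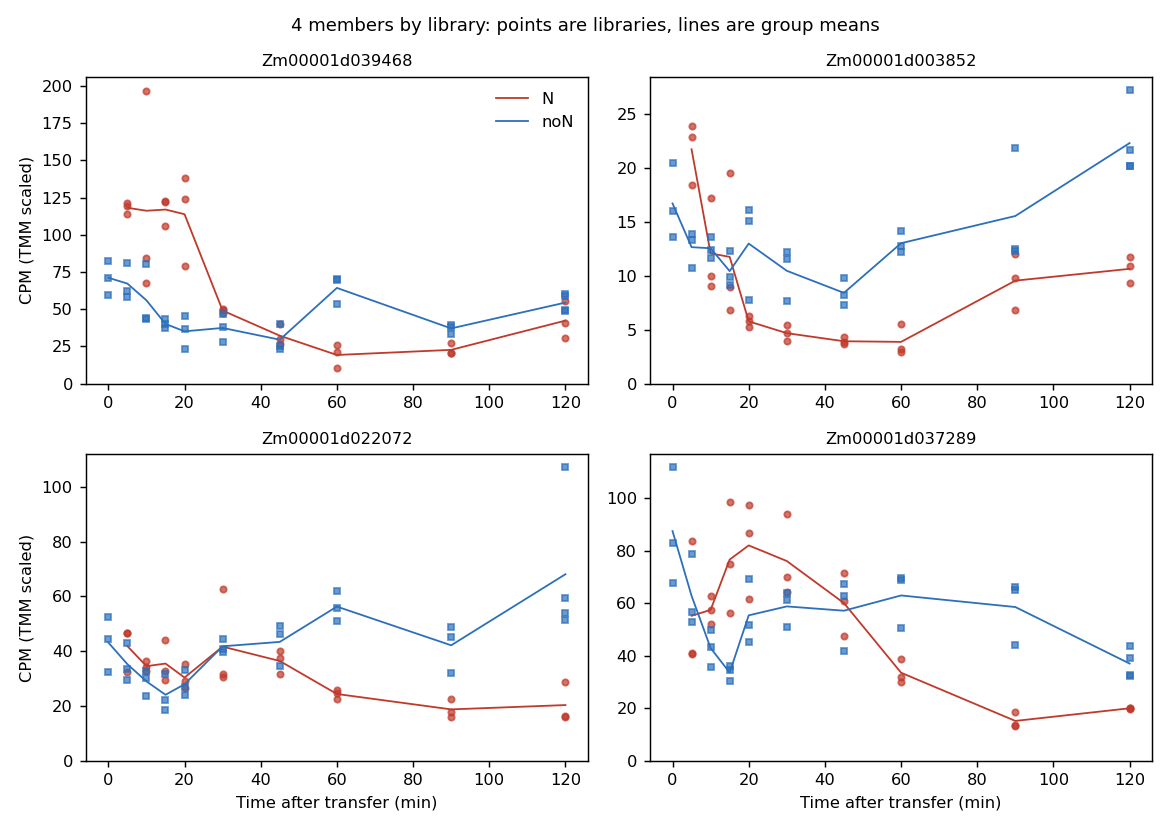
CPM of the 4 singly identified genes in every library (points) with group means (lines), in N and noN roots against minutes after the change of medium. Zm00001d039468 has 26.5 to 49.9 CPM in N at 30 and 45 min and 67.5 to 197 CPM in N at 10 and 15 min.

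Other genes are located by position and were picked because they were extreme, so their values are descriptive. The widest gap above noN over 10 to 45 min, 2.54 on the log2 scale (SE 0.22), was at chr2:11994467-11998302. That gene had 16.6, 31.9 and 52.2 CPM in N and 0.621, 2.44 and 2.45 CPM in noN at 20 min, and 3.78, 7.28 and 5.04 CPM in N and 10.6, 9.94 and 16.9 CPM in noN at 90 min. N libraries were thus all higher at 20 min and all lower at 90 min. The largest fall within N, −2.92 (SE 0.71, adjusted p = 0.00470, edgeR), was at chr1:60874573-60876557, a gene of low counts with 4.69, 5.09 and 2.08 CPM at 10 min and 0.406, 1.09 and 0 CPM at 45 min.

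The gene with the widest gap below noN at both early and late times lay at chr6:33193521-33195150. Its gap over 10 to 45 min was −2.72 (SE 0.48), and its N libraries stayed between 1.88 and 14.8 CPM at all times. Its noN libraries scattered within groups, with 8.05, 160 and 2.24 CPM at 30 min and 92.1, 3.46 and 5.36 CPM at 45 min. Other noN groups were high in several libraries, with 90.8, 63.1 and 97.1 CPM at 15 min.

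The mitochondrial gene, at Mt:273331-275849, had 17.4, 61.7 and 36.4 CPM in N and 120, 134 and 217 CPM in noN at 15 min, and its gap over 10 to 45 min was −0.70 (SE 0.19). The 2 non-coding RNA identifiers, at chr6:92505629-92505763 and on an unplaced contig, were higher in N over the same times by 1.40 (SE 0.26) and 1.48 (SE 0.31). Reads of near-identical copies elsewhere in the genome could be split between loci for any of these genes.

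A further pattern appeared in noN roots at 15 min. Against the mean of 10 and 20 min, 16 of the 121 genes were higher and 1 lower in noN at 15 min, where 3.82% and 0.699% of all genes were. In N roots 0 of the 121 passed the same test, as did 0 of all 18872 genes, while 3 of the 121 were lower and 5 higher at an unadjusted p under 0.05, against 3.03% and 3.34% of all genes. Of the 121, 3 met the level minimum only through noN at 15 min, and the noN count was 15 without them. It was 13 with the trend over exon length removed, 5 without replicate 3 of noN at 15 min and 10 when only the groups in the contrast were fitted.

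The 16 genes had a median rise of 2.23 on the log2 scale (0.97 to 3.17) at 15 min in noN, against a median of 0.12 in N. They were picked by that rise in noN, so its size and the high noN libraries at 15 min are given as a description. In single libraries their median change from 0 min was 0.72, 0.13 and 0.04 in N at 15 min and 2.30, 1.47 and 2.37 in noN at 15 min. In noN at other times, replicate 1 was high in the 5, 10 and 20 min groups (1.202, 0.67 and 1.02), and replicate 3 in the 60 min group (1.297). Replicates 2 and 3 were high at 90 min (1.19 and 0.94), and replicate 4 at 120 min (1.00). In N roots the highest libraries had 0.72 (replicate 1 at 15 min) and 0.69 (replicate 2 at 10 min), both above noN replicate 1 at 10 min. Of the 16 genes, 12 were below noN in N roots at 15 min, 8 fell in noN between 10 to 15 and 30 to 45 min, and 3 fell in N; the first pair of tests shares the noN libraries of 15 min with the test that picked the 16.

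One gene of the 121 at chr7:108484538-108486653 was high in some of the same noN libraries. It had 5.27, 5.71 and 28.9 CPM in N and 652, 347 and 667 CPM in noN at 15 min. In the noN groups of 5, 60 and 90 min it also had 430, 12.7 and 6.49 CPM, 18.4, 6.62 and 368 CPM, and 8.37, 435 and 2.41 CPM. A second gene, at chr2:191852046-191853897, had 26.9, 4.19 and 7.49 CPM in N and 476, 216 and 616 CPM in noN at 15 min, with 271 CPM in noN replicate 1 at 5 min, 288 in replicate 3 at 60 min and 340 in replicate 2 at 90 min. Single N libraries were high for these genes as well. N replicate 1 at 10 min had 161 CPM for the first and 98.5 CPM for the second, and N replicate 3 at 30 min had 77.2 and 65.7 CPM. Both genes were chosen for their noN values, and neither passed the 15 min test (log2 rise 2.89, adjusted p = 0.0832, and 3.21, adjusted p = 0.0599, edgeR).

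The most abundant of the 121 genes, at chr2:37815902-37818424, was high in part of the same libraries. It had 690, 333 and 313 CPM in N and 1405, 803 and 1740 CPM in noN at 15 min, and 1040, 268 and 415 CPM in noN at 5 min. The gene at chr1:303573712-303576362 had 44.3, 18.7 and 21.7 CPM in N and 287, 163 and 274 CPM in noN at 15 min. It was the 1 gene whose change was more positive in N than in noN, with a difference of 2.30 (SE 0.60, adjusted p = 0.0225, edgeR), since its log2 change in noN was −2.4995.

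**Figure D5:**
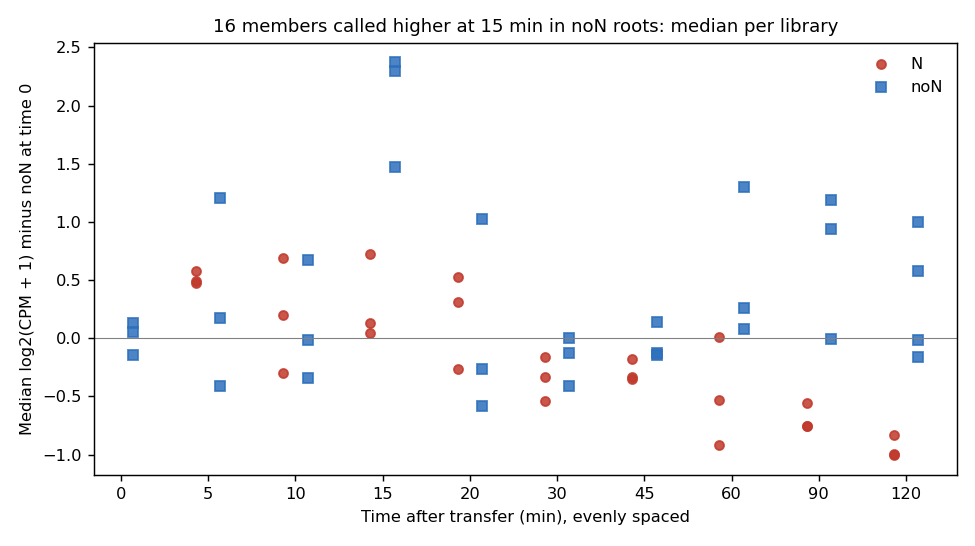
Median change from 0 min, on the log2(CPM + 1) scale, of the 16 genes that were higher at 15 min in noN roots, in every library of N and noN roots by minutes. The 3 noN libraries at 15 min (1.47 to 2.37) are above all other libraries, which follows from how the 16 genes were picked. Single noN libraries in the 5, 20, 60, 90 and 120 min groups reach 1.00 to 1.297.

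The deposited regulatory network links 196 regulators to targets of which 2098 are not themselves regulators, each pair with a weight whose scale is not explained in the sources used here. The network was built in this study from the same roots, so it is not independent of the courses above. Of the 121 genes, 65 were among its targets (53.7%), against 11.2% of the 18676 genes tested that are not regulators. Among the 59 genes higher in N at 10 to 45 min, 47 were targets (79.7%), against 20.1% of all genes in that class. Among the 17 lower in N, 4 were targets (23.5%, against 13.2%), and among the 45 without a call 14 (31.1%, against 3.33%).

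Of the 16 genes that rose at 15 min in noN, 1 was a target, and 54 of the 710 genes of all that rose there were (7.61%). The 65 targets had a median gap over 10 to 45 min of 0.74 and the 56 others −0.11, on the log2 scale. Over all genes tested that are not regulators these medians were 0.31 for targets and −0.05 for the others. Within N, 18 of the 65 (27.7%) and 11 of the 56 (19.6%) fell, against 6.10% of all targets and 3.09% of the others. Within noN, 4 of the 65 (6.15%) and 15 of the 56 (26.8%) fell, against 6.34% and 4.69%. The highest weight to each of the 65 came from 29 different regulators. That regulator rose within N for 13 of the 65 genes, fell for 2 and was not called for 50. Over all genes tested, 5.27% rose and 3.54% fell within N. Some of the 65 share a leading regulator, and the split was not made for the leading regulators of all targets. These counts are therefore a description and no trait of the 65 can be read from them. For 10 of the 65 (15.4%) that leading regulator was one of the 11 that met the choice rule, against 14.6% of all 2098 targets that are not regulators.

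Genes that neighbour each other were few. In 6 pairs the starts lay within 200 kb, the closest being chr4:183198594-183199541 and chr4:183208273-183209323, 9679 bases apart on opposite strands. Across the 19 groups the correlation of the pair's log2 levels was 0.79, and over the 6 pairs it ran from 0.01 to 0.79, given as a description because all values share libraries and the choice rule. The 0.01 belongs to the gene at chr6:33193521-33195150 with the scattered noN libraries.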

How the data were processed

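Root RNA was measured as 3' end tags with unique molecular identifiers (75-base single reads). The authors deposited raw counts per gene, made with featureCounts 2.0.1 in strand-specific mode on deduplicated reads over the AGPv4.37 annotation, per the file headers; UMI-tools 1.1.1, fastp 0.21.0 and STAR 2.7.6a are named in the submitters' processing notes. A deposited table of quantile-normalised values, whose scale is not given, used as a score (18616 genes, 57 libraries, noN at 120 min replicate 4 not in it), and a deposited network of weights (a score) were also used.

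The members, contrasts and lists were chosen with earlier results of these data known. Gene choice used log2(CPM + 1), with CPM over each column's total. Tests used edgeR 4.0.16 (R 4.3.3): TMM scaling, filterByExpr (minimum count 10, minimum total 15), 19 group means in 58 libraries, 39 residual degrees of freedom, 18872 genes (99.7% of counts), adjusted p of 0.05. Standard errors are the absolute log2 change divided by the square root of F. Alternatives used limma 3.58.1 and DESeq2 1.42.0. The fit was tested on simulated data. Genes identified singly were the 2 with the smallest p among those that fell within N with a log2 change of −1 or lower, and, since none rose within N, the 2 with the smallest p among those that rose within noN; loci given by position were picked as extremes after their values were seen.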

Additional observations from a re-analysis of the deposited data

Results flagged for a closer look

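In noN roots at 120 min, the only group with 4 libraries, single libraries lay far from the other 3 for 6 single genes, by Dixon's ratio, the gap to the nearest library as a share of the group's range. The ratio was 0.893 for the gene at chr10:2262454-2264529 (64.1, 95.5, 98.4 and 385 CPM), 0.897 at chr6:33193521-33195150 (9.03, 51.8, 4.11 and 5.41 CPM) and 0.972 at chr2:191852046-191853897 (2.71, 1.49, 4.11 and 93.9 CPM). The gene at chr10:2262454-2264529 had the largest fall from N at 5 min, −2.4999. The ratio was 0.835 at chr7:108484538-108486653 (3.61, 4.47, 4.11 and 8.85 CPM), 0.839 at chr6:92505629-92505763 (3.61, 6.71, 4.11 and 3.93 CPM) and 0.854 for Zm00001d022072 (59.6, 51.5, 107 and 54.1 CPM). Over all 121 genes the median deviation from each gene's mean was 0.249, 0.268, 0.314 and 0.720 on the log2 scale, with a ratio of 0.862 for the fourth library. The ratio was tested for 19 sets of values, not for each of the 121 genes, and the 6 genes had been singled out beforehand. The limit is one that about 1 in 20 single groups would pass by chance. The sets past it come from the same 4 libraries, so this rate does not measure how unusual they are together.

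The change in N differed from the change in noN by 2.30 on the log2 scale at chr1:303573712-303576362, by −1.16 for Zm00001d003852 and by −1.05 for Zm00001d039468, each by the test of the difference itself. More negative calls made up 1.65% of the 121 genes and more positive ones 0.83%, against 1.17% and 2.06% of all genes. As given with that test above, no call was kept when an early time was left out of the contrast in both media. Leaving out single libraries lost the call of Zm00001d039468 for 8 of 24 and that of Zm00001d003852 for 3 of 24.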

How the results depend on the processing

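No alternative turned the direction of a called result, and over 783 alternative values 705 kept their side of the threshold or stayed within 1.5 times the main count. For each tested result, only libraries of the groups in its own contrast were left out. The number of genes that fell within N, 29, was 18 to 28 when any of its 12 libraries was left out, and the number that rose stayed at 0. For noN, 19 fell and 2 rose; leaving out a library gave 14 to 25 and 1 to 3, and leaving out the 15 min groups, chosen after seeing the data, gave 2 and 0. For the difference of the changes, 2 genes were more negative in N, with 0 to 5 when a library was left out, 4 when only the groups in the contrast were fitted, 0 without the 15 min groups and 1 with limma. The 1 gene more positive in N became 0 to 2, 2 with only those groups, 2 with DESeq2 and 0 without the 15 min groups. Over 10 to 45 min, 17 genes were lower in N, with 11 to 18 when a library was left out and 11 without the 15 min groups; 59 were higher, with 53 to 60. The 16 genes higher at 15 min in noN were 5 to 23 when a library was left out and 10 with only those groups.

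Among all genes tested, the 1044 that rose and 937 that fell in noN were 315 and 267 without the 15 min groups. The 388 and 221 with a more positive and a more negative change in N were 165 and 34 without them; the 221 were 126 with no filter and 134 with only those groups. For the noN rise at 15 min, 720 and 132 were 260 and 11 with only those groups, and the 132 were 296 with limma on the quantile-normalised values.

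The rule itself chose 121 genes, 110 to 140 when a library it used was left out, 119 without replicate 4 of noN at 120 min, 155 with TMM scaling, 47 with both limits at −1 and 308 at −0.6. A replicate block moved the 29 to 34 and the 19 to 25. Over 513 pairs of same-numbered libraries from different groups, deviations from group means correlated with a median of 0.008 (−0.457 to 0.513). For 1026 differently numbered pairs the median was 0 (−0.506 to 0.536). These pairs span all times and both media, so a pairing of N with noN libraries at a single time was not tested. Counts at single times were repeated only with the trend over exon length removed.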
